A study of Homo sapiens with 8 samples.

Results

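FOS, FOSB and EGR1 were lower in sphere cultures than in adherent cultures of 3 ovarian cancer cell populations and higher in the spheres of the fourth, the COV318 cells that overexpress MGP. In both MGP-manipulated lines FOS was lower than in the labelled control, in adherent cells and in spheres, with 1 library on each side. The COV318 cells that overexpress MGP may differ from their control in more than MGP. In their spheres 23.4% of all genes were at least 2-fold lower than in the control. FOS, FOSB and EGR1 belong to 10 immediate early response genes that were chosen by name, with earlier results of these data known. The 10 are FOS, FOSB, FOSL1, FOSL2, JUN, JUNB, JUND, EGR1, IER2 and DUSP1. All 10 are among the 20339 genes of the deposited count table.

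Immediate early genes are transcribed within minutes of a stimulus such as serum, a growth factor or stress, and they need no new protein synthesis for it. FOS and JUN proteins pair to form AP-1, a transcription factor that binds many genes of growth and migration, and EGR1 is a zinc finger factor switched on through the ERK pathway and serum response factor. DUSP1 is a phosphatase that turns MAP kinases off again, and IER2 encodes a small nuclear protein of the same early response. The transcripts are short-lived, so their level in a culture follows its recent stimulation.

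RNA-seq was performed on OVCAR3 and COV318, established lines used as models of high-grade serous ovarian cancer. MGP, a secreted matrix protein, was knocked out in OVCAR3 with CRISPR-Cas9 (OVCAR3-MGPKO, against OVCAR3-CTR) and expressed in COV318 from a lentiviral cDNA (COV318-MGP, against COV318-CTR with the empty vector). Each of the 4 populations was sequenced as bulk adherent cells and as spheres enriched for ovarian cancer stem cells (OCSC), with 1 library per condition and 8 in all. OVCAR3 was at passage 4 and COV318 at passage 18.

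Several features of the design bear on these genes. Bulk cells grew on plastic with serum, whereas spheres grew without serum, without adhesion and with EGF and FGF2. Accutase was used to disperse spheres for re-plating as second-generation spheres, and its use before RNA extraction is not described. Medium, growth factors and adhesion therefore cannot be told apart from the culture. The OVCAR3-MGPKO cells were guided to exon 1, sorted for GFP and cloned, and the number of clones in the library is not given in the sources used here. Both COV318 populations were selected with puromycin. In bulk RNA, fewer responding cells and less RNA per cell cannot be told apart.

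The libraries held 12294591 to 37393919 counts. MGP had 40393 and 28694 counts in the bulk and OCSC libraries of COV318-MGP and 0 to 2 in the other 6, so the overexpression label was borne out, while the knockout could not be checked because OVCAR3-CTR itself had 0 and 1. The COV318-MGP libraries stood apart. Across all genes their log2 values correlated with those of COV318-CTR at r = 0.747 to 0.757 over 4 pairs, below the 0.798 to 0.806 of COV318-CTR with OVCAR3 over 8 pairs. Of 9 ovarian carcinoma markers, 9 were past a 2-fold difference (log2FC of 1 in size) and lower in COV318-MGP than in COV318-CTR in bulk and 7 in OCSC, where KRT8 was higher, against 24.3% and 23.4% of all genes lower. KRT8, named after its values were seen, was at -1.07 in bulk. It was short of a 2-fold difference there under CPM (-0.75) and TMM (-0.97), which scale to the library total and to a trimmed mean. KRT7, PAX8 and SOX17 had 0 counts in both COV318-MGP libraries. The summed normalized count of the 9 markers was 1782 and 8350 in COV318-MGP, 41290 and 16260 in COV318-CTR and 115100 to 223600 in OVCAR3. The part of this difference in the results on COV318-MGP was not tested. Differences in cell identity, selection and MGP cannot be told apart between COV318-MGP and COV318-CTR, so their comparison may be one of cells that differ in more than MGP. The edgeR tests below are given with and without COV318-MGP.

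Levels are normalized counts, that is counts divided by the median-of-ratios size factor. The log2FC is the difference of log2(normalized count + 1), and a gene was past the fold at a log2FC of at least 1 in size when 1 library of the pair held at least 50 counts. Intervals of 95% around a log2FC are exact and cover counting error only, not the spread between cultures.

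FOS, the partner of JUN in classical AP-1, was lower in OCSC than in bulk of each population except COV318-MGP. Its normalized count in bulk was 4219 in OVCAR3-CTR, 1149 in OVCAR3-MGPKO, 6046 in COV318-CTR and 34.65 in COV318-MGP. The OCSC libraries of those populations held 824.2, 348.9, 2144 and 814.5. The bulk library was above the OCSC library in 3 populations, with log2FC of OCSC against bulk of -2.35 (interval -2.47 to -2.25), -1.72 (-1.89 to -1.55) and -1.50 (-1.58 to -1.42). In COV318-MGP the order was turned round, from 63 counts in bulk to 569 in OCSC, a log2FC of 4.52 (4.18 to 4.95).

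FOSB, a close paralog of FOS, had its bulk and OCSC levels in the same order as FOS. Its normalized count in bulk was 1610 in OVCAR3-CTR, 278.1 in OVCAR3-MGPKO, 2101 in COV318-CTR and 12.65 in COV318-MGP. In OCSC the values were 92.41, 88.31, 334.4 and 120.2. The log2FC of OCSC against bulk was -4.11 (-4.44 to -3.82) in OVCAR3-CTR, -1.64 (-2.005 to -1.31) in OVCAR3-MGPKO, -2.65 (-2.85 to -2.46) in COV318-CTR and 3.15 (2.57 to 3.98) in COV318-MGP. The 2 OVCAR3 spheres, far apart in bulk, held nearly the same FOSB level.

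EGR1 had the widest range of the members with a count in every library, 294.6-fold from the lowest to the highest library. Its normalized count in bulk was 4698 in OVCAR3-CTR, 2187 in OVCAR3-MGPKO, 1642 in COV318-CTR and 15.95 in COV318-MGP. In OCSC all 4 populations lay between 222.2 and 404.2, so that the spread of EGR1 among populations was seen in the bulk cells. The log2FC of OCSC against bulk was -4.40 (-4.60 to -4.21), -2.80 (-2.97 to -2.64) and -2.02 (-2.21 to -1.84) in OVCAR3-CTR, OVCAR3-MGPKO and COV318-CTR. It was 3.91 (3.42 to 4.61) in COV318-MGP, where bulk held 29 counts and OCSC 177.

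**Figure D1:**
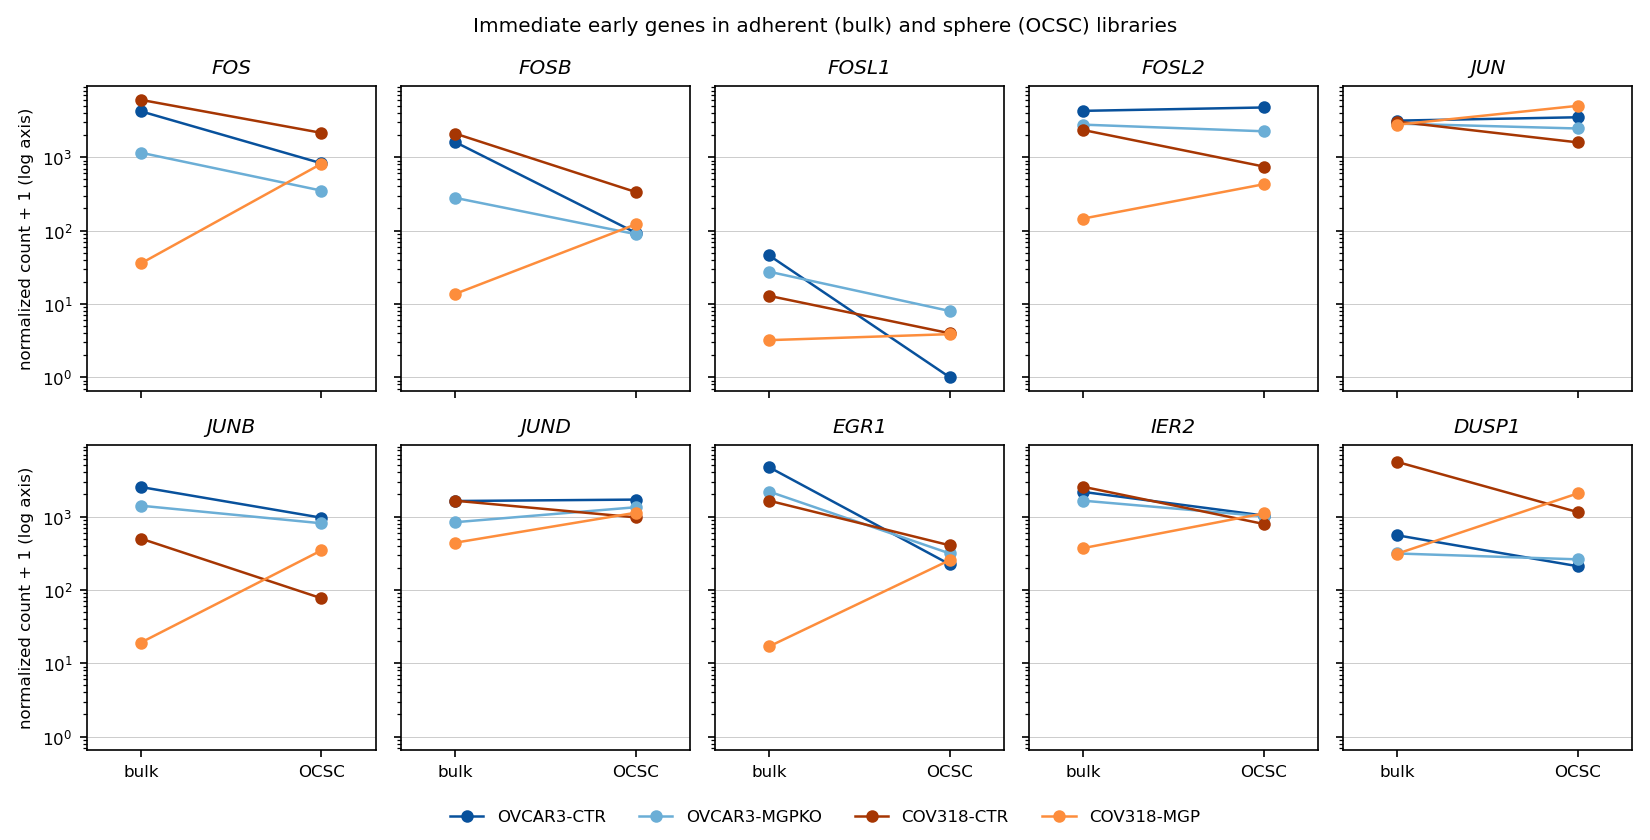
Normalized count + 1 on a log axis (vertical) of the 10 members in the bulk and OCSC library of each of the 4 populations, 1 point per library, with a line joining the libraries of a population. FOS, FOSB and EGR1 slope down in 3 populations and up in COV318-MGP, whose bulk library is the lowest for 7 of the 10 genes, whereas JUN stays between 1590 and 5015.

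The promoters of these 3 genes are shown because their shared pattern makes their control sequences of interest. The sequences are from RefSeq on GRCh38.p14 and cover the 150 bases before the annotated start, 5′ to 3′ on the gene's strand. FOS is at chr14:75278678-75278827, FOSB at chr19:45467846-45467995 and EGR1 at chr5:138465329-138465478, all on the plus strand. Capitals mark the CArG box, to which serum response factor binds, and TGACG on either strand (CGTCA where it lies on the minus strand), the core of the cAMP response element.
FOS: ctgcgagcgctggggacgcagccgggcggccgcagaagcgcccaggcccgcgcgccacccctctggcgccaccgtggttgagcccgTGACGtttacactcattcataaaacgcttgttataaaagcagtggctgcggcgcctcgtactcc
FOSB: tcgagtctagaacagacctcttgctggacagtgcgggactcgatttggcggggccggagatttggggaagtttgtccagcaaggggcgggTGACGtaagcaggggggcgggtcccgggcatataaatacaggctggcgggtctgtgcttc
EGR1: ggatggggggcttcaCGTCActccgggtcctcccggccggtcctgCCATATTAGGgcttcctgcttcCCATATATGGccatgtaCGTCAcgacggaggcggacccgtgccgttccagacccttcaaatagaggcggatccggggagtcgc

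Motifs were searched on both strands from 250 bases before to 50 after the start, in the 9 members for which this window was found (not FOSL1). TGACG was in 9 of 9 windows and in 24.6% of 35116 windows of all genes. FOS held it at -64 to -60 and FOSB at -60 to -56 relative to the start, and both have a TATAAA, at -33 to -28 and -30 to -25. TATAAA was found in 4 members, FOS, FOSB, JUNB and DUSP1, against 11.5% of all windows. Within these windows the CArG box was found in EGR1 alone, 2 times, at -105 to -96 and -83 to -74, against 1.29% of all windows. Bases farther from the start were not searched, so a gene without a match here may hold the box elsewhere. The full palindrome TGACGTCA, which contains TGACG, was in JUND and DUSP1 (1.85% of all windows), the AP-1 site TGAGTCA in FOSL2 (4.95%) and the EGR1 site GCGNGGGCG in EGR1 itself (9.43%). These matches describe the letters of the windows, and binding was not measured.

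Of the remaining FOS proteins, FOSL1 was near the floor and FOSL2 followed the cultures less closely. FOSL1, which lacks a transactivation domain and is best known from RAS-transformed cells, never reached 50 counts. It had 29, 23, 22 and 4 counts in bulk OVCAR3-CTR, OVCAR3-MGPKO, COV318-CTR and COV318-MGP, and 0, 8, 2 and 2 in OCSC. With a floor of 3 counts per library it was at least 16.0-fold lower in OCSC than in bulk of OVCAR3-CTR, without the counting error of the 29 bulk counts, and with that error the interval of the log2FC ended at -3.61. For the low counts of the other populations the interval was -3.29 to -0.71 in OVCAR3-MGPKO, -5.13 to 0.03 in COV318-CTR and -3.09 to 3.18 in COV318-MGP. FOSL2 was at 4282 and 4761 normalized counts in bulk and OCSC of OVCAR3-CTR and at 2777 and 2254 in OVCAR3-MGPKO, log2FC of 0.15 and -0.30. In COV318-CTR it was lower in OCSC by a log2FC of -1.65 (-1.79 to -1.52), and in COV318-MGP higher by 1.55 (1.32 to 1.80).

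Among the JUN proteins, JUN itself varied least and JUNB most. JUN was at 3149, 2867, 3052 and 2775 normalized counts in bulk OVCAR3-CTR, OVCAR3-MGPKO, COV318-CTR and COV318-MGP, and at 3500, 2460, 1590 and 5015 in OCSC. Its log2FC of OCSC against bulk stayed under 1 in size in each population, at 0.15, -0.22, -0.94 and 0.85. JUND, the JUN protein of resting cells, varied 3.88-fold over the libraries and was past the fold in COV318-MGP alone, at 1.36 (1.22 to 1.504).

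JUNB, which restrains the activity of JUN in many settings, was at 2524, 1404, 498.8 and 18.15 normalized counts in the 4 bulk libraries in that order and at 962.4, 807.9, 75.79 and 345 in OCSC. The log2FC of OCSC against bulk was -1.39 (-1.50 to -1.28), -0.80 (-0.92 to -0.67), -2.70 (-3.15 to -2.31) and 4.18 (3.72 to 4.82). OVCAR3 thus held more JUNB than COV318 in either culture, and COV318-MGP was the lowest in bulk and above COV318-CTR in OCSC.

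DUSP1 and IER2 had the same signs. DUSP1 was by far the highest in bulk COV318-CTR, at 5547 normalized counts, against 310.7 to 553.6 in the other bulk libraries. In OCSC it was at 209.1, 259.7, 1146 and 2070 in OVCAR3-CTR, OVCAR3-MGPKO, COV318-CTR and COV318-MGP. The log2FC of OCSC against bulk was -1.40 (-1.65 to -1.16), -0.27 (-0.51 to -0.02), -2.27 (-2.38 to -2.17) and 2.73 (2.59 to 2.88), so both COV318 populations held more DUSP1 than OVCAR3 as spheres. IER2 differed less between libraries, 6.87-fold in all, with log2FC of -1.07 (-1.19 to -0.96), -0.70 (-0.82 to -0.59), -1.69 (-1.82 to -1.56) and 1.57 (1.42 to 1.73). In OCSC its 4 levels lay between 790.6 and 1102.

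**Figure D2:**
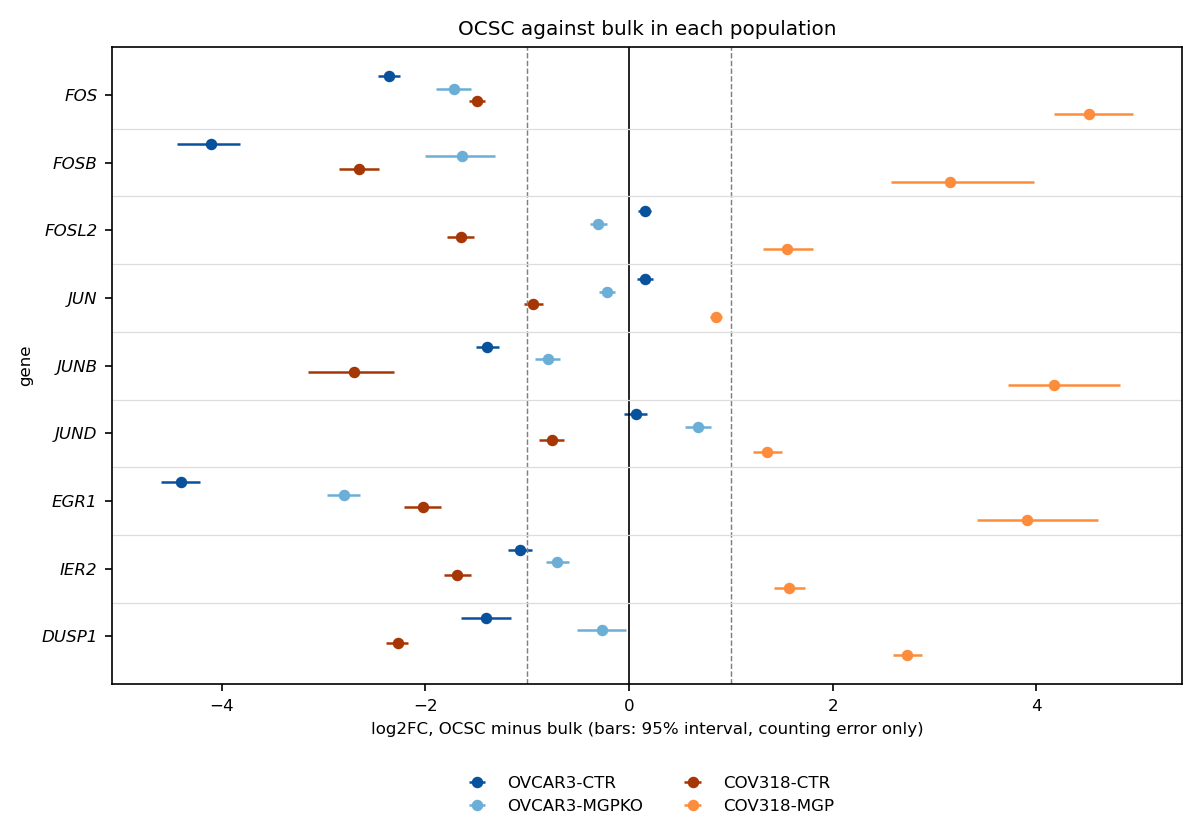
The log2FC of OCSC minus bulk (horizontal) for the 9 members with at least 50 counts in 1 library, 1 point per population, with bars for the 95% interval of counting error and dashed lines at -1 and 1. COV318-MGP lies right of 0 for every gene shown, and for FOS, FOSB and EGR1 the other 3 populations lie left of -1.

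Counted over the 9 members with enough counts, 6 were past the fold in the lower direction in OCSC of OVCAR3-CTR, where 7.36% of all 12377 genes were. In OVCAR3-MGPKO the count was 3 of 9 (5.21% of 12758 genes) and in COV318-CTR 7 of 9 (8.05% of 13379). None was past it in the higher direction in these 3 populations, where 12.6%, 6.51% and 5.83% of all genes were. COV318-MGP had 8 of 9 past the fold in the higher direction, against 6.72% of 13360 genes, with JUN as the remaining one at 0.85, and none in the lower direction (6.42% of genes). Under CPM the member counts were the same, while the shares of all genes lower and higher were 5.31% and 6.11% in COV318-CTR and 7.64% and 3.72% in COV318-MGP. The median log2FC of the members was -1.39, -0.70, -1.69 and 2.73 in the 4 populations, whereas over all genes it was 0.12, 0.06, -0.08 and -0.01.

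FOS, FOSB and EGR1 were the members past the fold in the lower direction in OCSC of all 3 populations other than COV318-MGP, a pattern held by 72 of 11148 genes (0.646%). The same 3 members, with 13 other genes, were also past the fold in the higher direction in COV318-MGP, that is 16 of 10596 genes (0.151%). These 13, named after their values were seen, are AMOTL2, CCN1, CPA4, ENC1, EPHA2, FHL2, GADD45B, HES4, ICAM5, IRS2, KIFC3, LBH and MYADM. AMOTL2 and CCN1 are well-known targets of YAP, the effector of the Hippo pathway, and GADD45B is a stress-induced gene. No member was lower, and none higher, in OCSC of all 4 populations (5 and 6 genes of 10596, 0.0472% and 0.0566%). Within COV318, 7 members were lower in OCSC of COV318-CTR and higher in OCSC of COV318-MGP, against 98 of 11600 genes (0.845%). The difference between COV318-MGP and the other populations was not tested, since it exists as 1 population.

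The culture effect was tested with edgeR's quasi-likelihood test over the 8 libraries, with the population as a block, so that the 4 populations served as replicates. Populations of 1 line are related, and the p-values measure the spread between these populations only. With all 4 populations, none of 18514 genes passed a Benjamini-Hochberg adjusted p of 0.05 (0% in either direction). At an unadjusted p under 0.05 there were 1372 genes. DESeq2 called 181 genes higher (1.24% of 14565) and 77 lower (0.529%), and limma voom 14 higher (0.0756%) and 4 lower (0.0216%). No member passed in edgeR, voom or DESeq2, which gave FOSL1 no adjusted p. EGR1 had a log2FC of -1.98 ± 1.199 (SE, 4 populations, edgeR adjusted p = 0.820), FOSB -1.76 ± 1.05 (edgeR adjusted p = 0.810) and FOS -0.88 ± 1.01 (edgeR adjusted p = 0.926), each lower in 3 of 4 populations. FOSL1 had the smallest p of the members, at a log2FC of -2.46 ± 1.005 (edgeR adjusted p = 0.652), with -1.42 when OVCAR3-CTR was left out and -3.08 when COV318-MGP was.

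Without COV318-MGP the test called 49 of 17192 genes, 30 higher (0.174%) and 19 lower (0.111%) in OCSC, and FOS was one of the latter. FOS then had a log2FC of -1.89 ± 0.24 (SE, 3 populations, edgeR adjusted p = 0.0488) and was lower in 3 of 3 populations. The population left out is the one in which FOS went the other way, so a smaller SE follows from leaving it out. Of the 3 populations left, 2 are OVCAR3, and this subset was fitted with edgeR alone. EGR1 at -3.09 ± 0.47 and FOSB at -2.84 ± 0.47 did not pass (edgeR adjusted p = 0.0786 and 0.0911), nor did IER2 at -1.18 ± 0.24, JUNB at -1.62 ± 0.36 and DUSP1 at -1.36 ± 0.38 (edgeR adjusted p = 0.139, 0.172 and 0.254). JUND had -0.03 ± 0.29 and JUN -0.37 ± 0.25. Leaving out any of the other populations in turn gave 0 calls. Without OVCAR3-CTR the log2FC was nearer to 0, at -0.16 for FOS, -0.94 for EGR1 and -0.79 for FOSB. A test of whether the culture effect differed between OVCAR3 and COV318 called 2 genes, both with a lower log2FC in COV318 (0.0108%), and no member. DESeq2 called 49 genes higher (0.354%) and 119 lower (0.859%) in that test. EGR1 had the smallest p of the members, with a log2FC 4.28 ± 1.70 higher in COV318 than in OVCAR3 (edgeR adjusted p = 0.573). Without COV318-MGP, a fit added after the data were seen, COV318-CTR alone stands for its line, so the spread comes from the 2 OVCAR3 populations and COV318-CTR is assumed to vary like them. That difference was then 1.59 ± 0.64 (edgeR adjusted p = 0.435). This fit called 4 genes higher (0.0233%) and 20 lower (0.116%) in COV318 and no member.

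**Figure D3:**
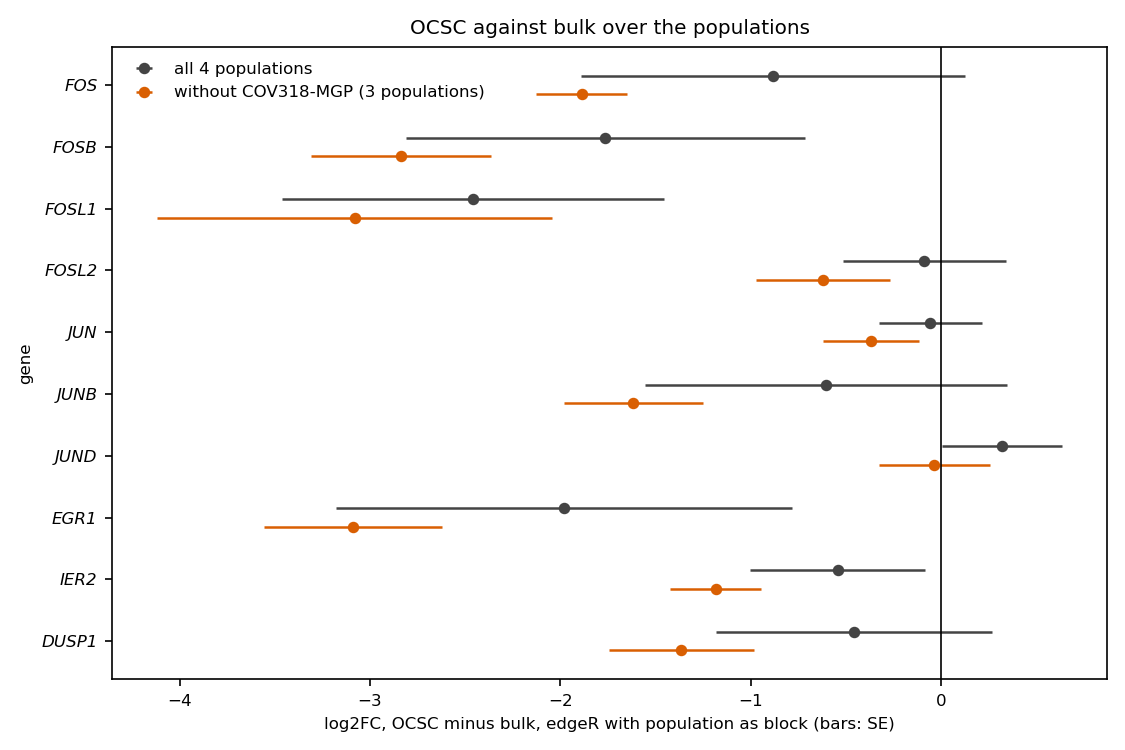
The edgeR log2FC of OCSC minus bulk (horizontal) of the 10 members over all 4 populations and over 3 populations without COV318-MGP, with bars for the SE. For FOS, FOSB, JUNB, EGR1, IER2 and DUSP1 the value without COV318-MGP is lower and its SE smaller, with FOS at -0.88 ± 1.01 over 4 populations and -1.89 ± 0.24 over 3.

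The makeup of the FOS and JUN families was compared on normalized counts per kb of exon, since longer genes collect more counts. The length is that of all annotated exons of a gene merged, which can exceed that of its main transcript, so the shares are approximate. In OVCAR3, FOS held a smaller and FOSL2 a larger share of the FOS family in OCSC than in bulk. The share of FOS was 59.2% in bulk and 27.5% in OCSC of OVCAR3-CTR, and 44.4% and 24.7% in OVCAR3-MGPKO, while FOSL2 made 26.7% and 70.7%, and 47.7% and 70.9%. COV318-CTR kept FOS as the main member in both cultures, at 72.7% and 80.2%. COV318-MGP had 31.5% FOS and 58.5% FOSL2 in bulk, where the whole family summed to 34.5 normalized counts per kb, and 75.6% FOS in OCSC, at a sum of 338.4. The other bulk libraries summed to 812.5 to 2610. Among the JUN genes, JUNB made 44.6% of the family in bulk OVCAR3-CTR and 22.2% in OCSC, whereas in bulk COV318-MGP JUN made 76.4% and JUNB 0.989%.

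**Figure D4:**
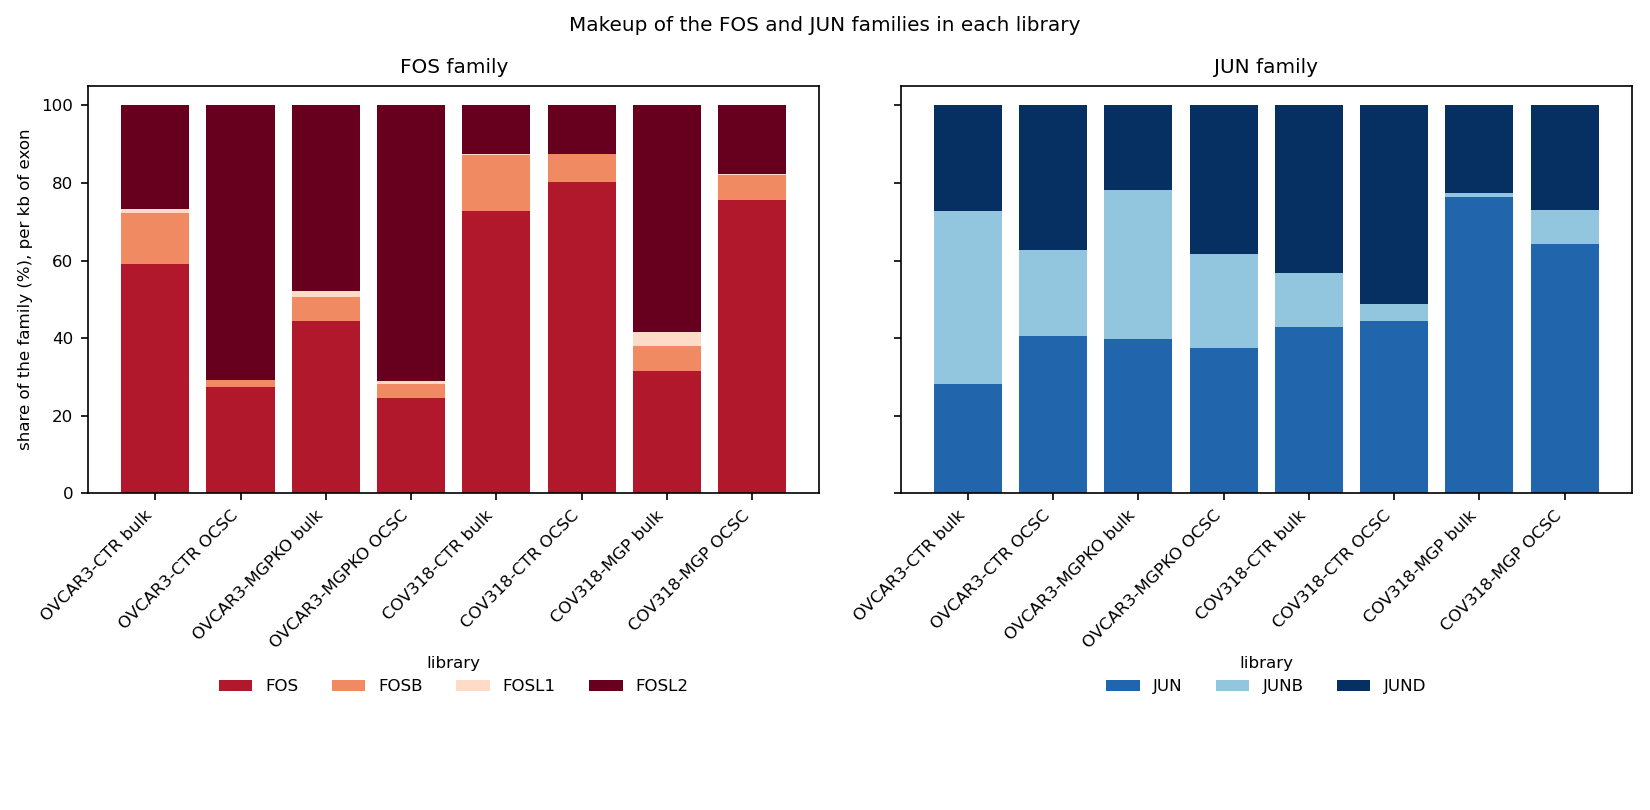
Share in percent (vertical) of each gene in the FOS family and in the JUN family, from normalized counts per kb of exon, stacked to 100 in each of the 8 libraries. FOSL2 takes over 70% of the FOS family in both OVCAR3 OCSC libraries and under 20% in both COV318 OCSC libraries, and JUNB nearly vanishes in bulk COV318-MGP.

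The MGP-manipulated cells were compared with their controls, which rests on 1 library for each side. In OVCAR3 all 4 libraries had 0 to 2 MGP counts, too few to show whether MGP RNA differed. This comparison is therefore of the populations as labelled. The study detected MGP protein in OVCAR3 and reported its ablation in the knockout by immunofluorescence, western blot and RT-qPCR. In bulk OVCAR3, the OVCAR3-MGPKO cells held less FOS, FOSB and EGR1. The log2FC of OVCAR3-MGPKO against OVCAR3-CTR was -1.88 (-1.98 to -1.77) for FOS, -2.53 (-2.74 to -2.33) for FOSB and -1.10 (-1.19 to -1.02) for EGR1, which was at -0.95 and short of the fold under CPM. These were 3 of 9 members, with 6.34% of 12335 genes past the fold in that direction, and the other 6 lay between -0.96 for JUND and -0.14 for JUN. None was past it in the higher direction (8.97% of genes). Under CPM 2 members were lower, against 4.22% of genes lower and 9.33% higher. In OCSC, FOS at -1.24 (-1.42 to -1.07) and FOSL2 at -1.08 (-1.15 to -1.01) were past the fold, FOSL2 not so under CPM (-0.95), 2 of 9 against 3.89% of 12682 genes, with none higher (4.01% of genes). FOSB at -0.06 (-0.48 to 0.35) and IER2 at -0.03 (-0.15 to 0.09) had intervals that include 0 there. EGR1 at 0.49 (0.25 to 0.74) and DUSP1 at 0.31 (0.06 to 0.57) were on the other side of 0. The median over the members was -0.85 in bulk and -0.25 in OCSC, and over all genes -0.01 and -0.05.

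In COV318 the differences were far larger in bulk. COV318-MGP bulk cells were past the fold in the lower direction for 8 of 9 members, in a comparison where 24.3% of 15029 genes were, and for none in the higher direction (21.9%), or 18.5% and 25.5% of genes under CPM with the same 8 members. The log2FC against COV318-CTR was -7.41 (-7.83 to -7.09) for FOS, -7.27 (-8.04 to -6.79) for FOSB and -6.60 (-7.27 to -6.16) for EGR1, from 11225, 3901 and 3048 counts to 63, 23 and 29. JUNB at -4.71, DUSP1 at -4.15, FOSL2 at -4.01, IER2 at -2.78 and JUND at -1.91 followed, and JUN was at -0.14 (-0.19 to -0.08; 0.16 under CPM), 5666 and 5045 counts. FOS stood at percentile 2.09 of all genes in this comparison and JUND at 14.6.

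In COV318 OCSC the members were split. FOS at -1.40 (-1.54 to -1.26) and FOSB at -1.47 (-1.86 to -1.11) were lower in COV318-MGP, with 23.4% of 13083 genes past the fold in that direction. JUN at 1.66 (1.56 to 1.76) and JUNB at 2.17 (1.75 to 2.65) were higher, with 23.7% of genes so. JUNB was thus lower in bulk and higher in OCSC, which 0.385% of 12973 genes were. The share of members past the fold, 2 of 9 in each direction, was thus near that of all genes. EGR1 was at -0.67 (-0.96 to -0.40), DUSP1 at 0.85 (0.73 to 0.98) and IER2 at 0.48 (0.32 to 0.64). The members' median was 0.21 and that of all genes 0.02, against -4.15 and -0.05 in bulk.

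**Figure D5:**
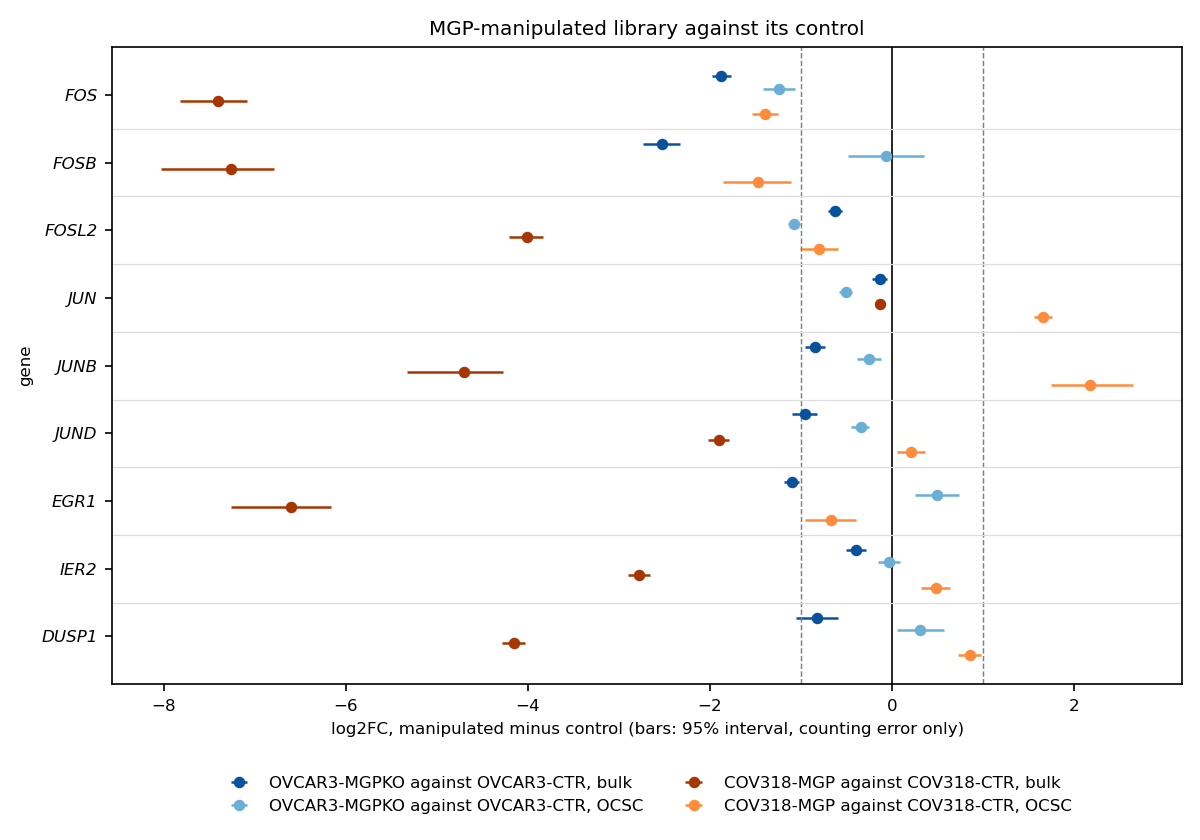
The log2FC of the MGP-manipulated minus the control library (horizontal) for 9 members in bulk and OCSC of both lines, with bars for the 95% interval of counting error and dashed lines at -1 and 1. FOS lies left of -1 in all 4 comparisons, bulk COV318 is farthest left for every gene except JUN, and JUN and JUNB lie right of 1 in COV318 OCSC.

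FOS was past the fold in the lower direction in all 4 of these comparisons, as were 40 of 11171 genes (0.358%). It was the 1 member so in both cultures of OVCAR3, with 1.08% of 11998 genes, and FOS and FOSB were so in both cultures of COV318, with 16.0% of 12973 genes. FOS, FOSB and EGR1 were lower in bulk of both manipulated populations (1.95% of 11817 genes), EGR1 not under CPM. The OCSC and bulk comparisons above use the same 8 libraries as these, so a low bulk library of COV318-MGP enters both.

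Seen by library, COV318-MGP bulk was the lowest of the 8 for 7 of the 9 members with enough counts, namely FOS, FOSB, FOSL2, JUNB, JUND, EGR1 and IER2, as it was for 15.3% of 15855 genes. COV318-CTR bulk was the highest for FOS, FOSB, IER2 and DUSP1, and OVCAR3-CTR bulk for FOSL1, JUNB and EGR1. JUN was lowest in COV318-CTR OCSC and highest in COV318-MGP OCSC, 3.15-fold apart. Per kb of exon, the median level over the libraries was 816.6 for JUN, 638.4 for JUND, 357 for JUNB, 346.5 for IER2, 321 for FOSL2, 309.7 for FOS, 215.1 for DUSP1, 114.3 for EGR1, 35.9 for FOSB and 2.64 for FOSL1. The ranges of JUN, JUND, JUNB, IER2, FOSL2, FOS, DUSP1 and EGR1 over the libraries overlapped widely, so their order is not firm.

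Across the 8 libraries, which share lines and cultures and are not independent, FOS went with FOSB (Pearson r = 0.959 on log2 values) and EGR1 with IER2 (0.934) and FOSB (0.910). FOSL2 and JUNB went together at 0.899. JUN had r of -0.06 to 0.34 with the other members, and DUSP1 had -0.15 with FOSL2 and 0.58 with FOSB. Among 15846 ranked genes, with the 10 members left out, the 5 with a pattern most like that of FOS were DLGAP1-AS2 (0.976), USP3, CNOT6, PLK3 and CCDC6 (0.937). For EGR1 they were WWC2-AS2 (0.956), LOC105374118, LOC107985416, LOC100288175 and NFKBID (0.934). For FOSL1, with few counts, they were DARS-AS1 (0.932), ELOC, ZNF519, LOC107986476 and LY6K (0.878).

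Lists of related genes were read against the shares of all genes past the fold in OCSC against bulk, which hold for each list that follows. The shares lower and higher were 7.36% and 12.6% in OVCAR3-CTR, 5.21% and 6.51% in OVCAR3-MGPKO, 8.05% and 5.83% in COV318-CTR and 6.42% and 6.72% in COV318-MGP. Other immediate early transcription factors did not all follow FOS. Of 12 in the table, 8 or 9 had enough counts in each population. In OCSC against bulk, 2 were lower and 1 higher in OVCAR3-CTR, and 2 lower and 2 higher in OVCAR3-MGPKO (1 and 1 under CPM). In COV318-CTR 6 were lower (4 under CPM) and none higher, and in COV318-MGP 5 were higher and none lower. MYC, a driver of growth, was lower in OCSC in 3 populations, with log2FC of -1.63, -1.01 (-0.98 under TMM) and -1.38, and in COV318-MGP it was at -0.65. NR4A2, a nuclear receptor induced early, was higher in 3, at 3.18 in OVCAR3-CTR, 1.16 in OVCAR3-MGPKO (0.94 under CPM) and 2.60 in COV318-MGP, with -0.14 in COV318-CTR. ATF3, a stress-induced factor that pairs with JUN, was lower in OVCAR3-MGPKO than in OVCAR3-CTR in both cultures, 133 against 1926 counts in bulk and 169 against 338 in OCSC, where the log2FC was -1.09 and under CPM -0.89. NR4A1 was higher in COV318-MGP than in COV318-CTR in both cultures, with log2FC of 2.16 and 5.51.

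Of 13 other early induced genes, 4 of 13 were lower and 4 higher (3 under CPM) in OCSC of OVCAR3-CTR. In OVCAR3-MGPKO 2 were lower and 2 higher of 12 (1 higher under CPM). In COV318-CTR 8 were lower (7 under CPM) and 2 higher of 13, and in COV318-MGP 9 of 12 were higher (8 under CPM). CCN1, a matricellular protein, followed FOS, with log2FC of -2.49, -2.01, -3.24 and 3.18, and so did GADD45B at -2.12, -1.60, -2.59 and 3.62. PHLDA1, singled out after its values were seen, was past the fold in the higher direction in all 4 populations, at 2.10, 2.53, 2.07 and 1.65. In the edgeR test without COV318-MGP, CCN1 was called lower and PHLDA1 higher in OCSC. With all 4 populations PHLDA1 was called higher by DESeq2, limma voom and edgeR without the filter on low counts, but not by edgeR with that filter.

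Of the feedback inhibitors of MAP kinase and early gene signals, listed without DUSP1, those past the fold were higher in OCSC, except for 2 in OVCAR3-CTR. DUSP1 itself, a member, was at -1.40, -0.27, -2.27 and 2.73 in OVCAR3-CTR, OVCAR3-MGPKO, COV318-CTR and COV318-MGP. In OCSC against bulk of OVCAR3-CTR, 4 were higher and 2 lower of 16, and in OVCAR3-MGPKO 6 were higher (5 under CPM) and none lower. In COV318-CTR 1 of 16 was higher (2 under CPM) and none lower, near the 5.83% of all genes higher there. In COV318-MGP 12 were higher and none lower. Of these, ZFP36L2, NAB2 and TNFAIP3, named after their values were seen, were short of the fold under TMM and CPM. DUSP6, an ERK phosphatase, and SPRY4, a Sprouty protein that limits receptor signalling, are induced by ERK activity. DUSP6 was higher in OCSC of OVCAR3-CTR, OVCAR3-MGPKO and COV318-MGP, with log2FC of 1.24, 2.97 and 5.83, and was at -0.30 in COV318-CTR. SPRY4 was at 2.09, 2.79, 5.37 and, in COV318-CTR, 0.01. So in both OVCAR3 populations DUSP6 and SPRY4 were on the opposite side from FOS and EGR1. The other phosphatases past the fold in OVCAR3-CTR, named after their values were seen, were split. DUSP4 was at -1.28 in OVCAR3-CTR, 1.63 in OVCAR3-MGPKO, 3.64 in COV318-CTR and 0.95 in COV318-MGP. DUSP5 was at -1.51, -0.20, 0.48 and 2.89, and DUSP10 at 2.13, -0.27, 1.67 and 1.68. In bulk COV318-MGP, DUSP6 had 19 counts against 5203 in COV318-CTR, and SPRY4 4 against 1536. Of the whole list, 13 of 17 were lower in bulk COV318-MGP than in COV318-CTR and 1 higher, against 24.3% and 21.9% of all genes.

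Of the kinases and factors upstream (ELK1, CREB1, MRTFA, MAP kinases and others), none of 15 was past the fold in OCSC against bulk of OVCAR3-CTR, OVCAR3-MGPKO or COV318-CTR, and 1, ELK4 (named after its values were seen), was higher in COV318-MGP, which is near the 6.72% of all genes. ELK1, which binds with serum response factor, was lower in COV318-MGP than in COV318-CTR in bulk (-1.76) and OCSC (-1.06). Of the 15 in bulk, none was higher and 2 lower (1 and 1 under CPM), against 21.9% and 24.3% of all genes. In OCSC of that comparison, 4 were higher (3 under CPM) and 2 lower, against 23.7% and 23.4%. Of the EGF and FGF receptors and EGFR ligands, 3 were higher (1 under CPM) and 2 lower of 14 in OCSC against bulk of OVCAR3-CTR, 1 higher and 3 lower of 13 in OVCAR3-MGPKO, 2 higher and 5 lower (3 under CPM) of 10 in COV318-CTR, and none higher and 2 lower of 11 in COV318-MGP. EGFR was lower in OCSC of 3 populations, with log2FC of -2.09, -1.97 and -1.60, and at 0.08 in COV318-MGP. EGFR was called lower in OCSC by edgeR without COV318-MGP, and was singled out after its values were seen.

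Genes often given as AP-1 targets showed no common direction in OCSC against bulk. There, 4 were higher (2 under CPM) and 1 lower of 8 in OVCAR3-CTR, and 2 higher and 1 lower of 9 in OVCAR3-MGPKO. In COV318-CTR 1 was higher and 4 lower of 9, of which TIMP1 was at -0.91 under CPM. In COV318-MGP 2 of 5 were higher. In bulk OVCAR3-MGPKO against OVCAR3-CTR, 4 of 7 were higher (3 with the median of ratios within each pair) and none lower, against 8.97% and 6.34% of all genes. In OCSC, 2 were higher (1 under CPM) and 1 lower of 9 (4.01% and 3.89%). For COV318-MGP against COV318-CTR, 2 were higher and 5 lower of 9 in bulk (21.9% and 24.3%). In OCSC, 3 were higher and 4 lower of 8 (23.7% and 23.4%). TIMP1, an inhibitor of matrix metalloproteinases, was higher in both manipulated populations in both cultures, with log2FC of 3.19 and 2.07 in bulk and OCSC of OVCAR3 and 4.36 and 7.86 in COV318. The metalloproteinase MMP10 was lower in COV318-MGP in both cultures, with 3 counts against 397 in bulk and 24 against 510 in OCSC. Of the dimer partners and repressors of AP-1, none was higher and 2 lower of 7 in bulk and none higher and 1 lower of 7 in OCSC of OVCAR3-MGPKO against OVCAR3-CTR. Of all genes, 8.97% were higher and 6.34% lower in that bulk comparison, and 4.01% and 3.89% in OCSC. In COV318, 2 were higher and 3 lower of 9 in bulk and 3 higher and 2 lower of 9 in OCSC. Those counts lay near the shares of all genes, 21.9% higher and 24.3% lower in bulk and 23.7% and 23.4% in OCSC. In OCSC against bulk, 1 was lower of 7 in OVCAR3-CTR, and none of 7 was past the fold in OVCAR3-MGPKO. In COV318-CTR 2 were higher and 2 lower (1 under CPM) of 9, and in COV318-MGP 4 higher and 2 lower of 9. Of those higher in COV318-MGP, MAFG, named after its values were seen, was at 0.94 under TMM and 0.83 under CPM. JDP2, a repressor of AP-1, had 858 counts against 1495 in bulk and 675 against 1488 in OCSC of OVCAR3, and 665 against 1360 in bulk and 84 against 304 in OCSC of COV318. Its log2FC was -1.23 in both cultures of OVCAR3 and -1.90 in OCSC of COV318, while in bulk COV318 it lay at the fold itself and short of it under TMM (-0.90) and CPM (-0.68). MAF, named after its values were seen, was higher in COV318-MGP in both cultures, at 1.57 and 1.34.

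Heat shock genes, a sign of cell stress, were past the fold in OCSC against bulk for 3 of 8 in OVCAR3-CTR and 4 of 9 in COV318-MGP, all higher, and for 1 of 9 in OVCAR3-MGPKO and 1 of 8 in COV318-CTR (0 under CPM), both lower. Their summed normalized count was 48730 to 88160 in bulk and 74560 to 95960 in OCSC. Of 10 markers of fibroblasts, blood cells and endothelium, 7 were in the table, and they summed to 128.7 to 827.8 normalized counts per library. The part of these genes in the member differences was not tested.

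In GENCODE 44 on hg38, FOS lies at chr14:75278826-75282230, FOSB at chr19:45467995-45475179 and EGR1 at chr5:138465479-138469303, all on the plus strand. The other AP-1 genes are FOSL1 at chr11:65892049-65900573, JUN at chr1:58776845-58784048 and JUND at chr19:18279694-18281622 on the minus strand, and FOSL2 at chr2:28392448-28417317 and JUNB at chr19:12791486-12793315 on the plus strand. IER2 lies at chr19:13150411-13154911 on the plus strand and DUSP1 at chr5:172768096-172771195 on the minus strand. Of the genes in the count table, ERCC1 shares bases with FOSB and HOOK2 with JUNB, both on the opposite strand. FOSL2, IER2 and DUSP1 overlap long noncoding RNAs that the table does not list under these names, for FOSL2 also on its own strand. Whether counting used the strand is not given in the sources used here. ERCC1 had log2FC of -0.92 to 0.28 and HOOK2 of -0.42 to 0.43 over the 8 comparisons, so neither followed its neighbour past the fold.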

How the data were processed

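The authors aligned paired reads to hg38 with STAR 2.7.5c, per the submitters' processing notes, and deposited 1 table with the unscaled count of each gene in 8 libraries. The study's methods list poly-A, ribosomal depletion and capture kits of the TruSeq line, of which the capture kit alone is not called strand-specific. Which one made these libraries, the annotation and whether counting used the strand are not given in the sources used here. The authors also deposited a normalized signal, the count divided by DESeq2's median-of-ratios size factor, which was recomputed here from 15518 genes and matched the deposited values within a relative 4.9e-10. Each gene in the table reached at least 10 counts in 1 library.

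The log2FC used a pseudocount of 1. Intervals (Clopper-Pearson, 95%) and the floor of 3 counts cover counting error only, and reads without molecular identifiers are not independent molecules. The culture effect was tested with edgeR 4.0.16 (quasi-likelihood, TMM, at least 10 counts in at least 2 libraries), with DESeq2 1.42.0 and limma 3.58.1 voom as alternatives in R 4.3.3, and other values used Python 3.11.15 with pandas 2.3.3 and scipy 1.17.1. With 1 library per condition no MGP comparison was tested. Exon lengths were those of all exons of a gene merged, from GENCODE 44. Functions were tested on simulated data. Members and lists were chosen with earlier results of these data known. From each other list, at most 4 genes could be named, those past the fold in the same direction in at least 3 populations (OCSC against bulk) or in both cultures of a line (MGP against control), and others are marked. Alternatives were other scalings, pseudocounts, fold thresholds, filters, tools, leaving out each population and omitting the block.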

Additional observations from a re-analysis of the deposited data

Results flagged for a closer look

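Within COV318, 7 members had a log2FC of OCSC against bulk of opposite sign in the control and the MGP-overexpressing population, each past the fold, as were 0.845% of 11600 genes in the same directions. FOS was at -1.50 in COV318-CTR and 4.52 in COV318-MGP, FOSB at -2.65 and 3.15, and FOSL2 at -1.65 and 1.55. JUNB was at -2.70 and 4.18, EGR1 at -2.02 and 3.91, IER2 at -1.69 and 1.57, and DUSP1 at -2.27 and 2.73. JUNB also differed between cultures, with a log2FC of COV318-MGP against COV318-CTR of -4.71 in bulk and 2.17 in OCSC (0.385% of 12973 genes). The differences were not tested, since each population has 1 library per culture, and all of them rest on the bulk COV318-MGP library, which held 23 to 673 counts of these 7 genes.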

How the results depend on the processing

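Of 41 member log2FC values past the fold, 41 stayed past it under edgeR's TMM factors, the median of ratios within each pair and pseudocounts of 0.5 and 10, and 39 under CPM, with none newly past it. CPM took EGR1 in bulk OVCAR3 (-0.95) and FOSL2 in OVCAR3 OCSC (-0.95), MGPKO against control, under the fold. TMM shifted all log2FC by up to -0.12 and CPM by up to 0.30. At a log2FC of 2, members past the fold numbered 3 in OVCAR3-CTR (5.37% of all genes), 1 in OVCAR3-MGPKO (3.48%), 4 in COV318-CTR (4.22%) and 5 in COV318-MGP (1.87%) for OCSC against bulk. For MGP-manipulated against control they numbered 1 in bulk OVCAR3 (3.34%), 7 in bulk COV318 (26.1%), 0 in OVCAR3 OCSC (1.67%) and 1 in COV318 OCSC (23.5%). At 0.5 they were 6 in OVCAR3-MGPKO (30.0%) for OCSC against bulk, 5 lower and 1 higher, JUND, and 7 in bulk OVCAR3 (40.5%) and 7 in COV318 OCSC (70.1%) for the manipulation. Under CPM 1 was left in OVCAR3 OCSC, lower as were 2.46% of all genes.

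For the culture effect over all genes, edgeR called 0, 15 without the filter on low counts, limma voom 18 and DESeq2 258. Leaving out 1 population gave 0 to 49 genes and 0 to 1 members called, and log2FC of -1.89 to -0.16 for FOS, -2.84 to -0.79 for FOSB, -3.09 to -0.94 for EGR1, -0.62 to 0.40 for FOSL2, -0.37 to 0.22 for JUN, -1.62 to 0.19 for JUNB, -1.36 to 0.24 for DUSP1, -3.08 to -1.42 for FOSL1, -1.18 to -0.15 for IER2 and -0.0345 to 0.656 for JUND. The positive values of FOSL2, JUN, JUNB and DUSP1 came without COV318-CTR. Without the replicate block of population, 0 genes were called and JUN was at 0.0623. For the difference between the lines 2 genes were called, 11 without the filter, 168 by DESeq2, 0 by voom and 24 without COV318-MGP, where JUNB (-1.61), IER2 (-0.78) and DUSP1 (-1.43) turned sign, and the signs of FOSL2 and JUN turned with median-of-ratios factors (0.0135 and 0.00785) and DESeq2 (0.0336 and 0.00692). The cause was not tested. The MGP comparisons were not tested with culture as a pairing, since each manipulation is 1 population and its cultures are not replicates of it. Counts under 50, as in bulk COV318-MGP, limit the precision of FOSB, JUNB and EGR1.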
